A study of Homo sapiens with 16 samples.

Results

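Inhibitors of apoptosis and the caspase machinery they restrain were followed after loss of BRD9 in G401 cells. The 8 genes were chosen by their function: XIAP, BIRC2, BIRC3, BIRC5 and BIRC6 of the inhibitor of apoptosis (IAP) family, the initiator caspase gene CASP9, its platform gene APAF1, and DIABLO, which encodes an IAP antagonist. All 8 were found among the 57820 genes in the files and all 8 were among the 15027 genes that passed the filter on low counts, although BIRC3 did so only through the groups in which it was high. Counts of members are therefore given with and without BIRC3.

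IAP proteins carry a baculoviral IAP repeat, a fold that lets some of them bind caspases. XIAP binds and blocks caspases directly, whereas BIRC2 (cIAP1) and BIRC3 (cIAP2) act mainly as ubiquitin ligases beside the TNF receptor and keep the NF-kB-inducing kinase MAP3K14 low. In the mitochondrial pathway, cytochrome c released into the cytosol assembles APAF1 into the apoptosome, which activates caspase-9, and DIABLO released from the same organelle displaces caspases from XIAP. BIRC5 (survivin) is chiefly a subunit of the chromosomal passenger complex of dividing cells, and BIRC6 is a very large ubiquitin-conjugating member of the family.

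G401 is an established cell line from a kidney rhabdoid tumour with mutant SMARCB1, a core subunit of SWI/SNF chromatin remodelling complexes, and BRD9 is a bromodomain subunit of a SWI/SNF complex that lacks SMARCB1. Total RNA was sequenced at days 1, 2, 3 and 5 in cells labelled BRD9 KO and in cells labelled LacZ, the control guide against a bacterial gene, with 2 libraries for each guide and day and 16 in all. The study's methods describe stable Cas9 cells infected with a lentiviral guide and selected with puromycin, so every group carried Cas9, a guide vector and their selection markers, and each library came from a bulk population and not from a clone. The event from which days were counted, and the guide sequence, are not given in the sources used here. The methods call the 2 libraries of a group biological replicates, but no label ties them to separate cultures, so the p-values measure the spread between these libraries, which may be technical. In bulk RNA, fewer cells expressing a gene and less RNA per cell cannot be told apart. Because the LacZ guide is against a bacterial gene, cutting of the genome by Cas9 and loss of BRD9 cannot be told apart either. Loss of BRD9, and its effect, below name the contrast of BRD9 KO with LacZ.

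Library totals ran from 9185808 to 16560669 expected counts in BRD9 KO and from 11252814 to 15430060 in LacZ. BRD9 itself lay between 12.3 and 20.3 TPM (transcript abundance scaled for gene length and library size) in the 8 BRD9 KO libraries and between 35.0 and 49.1 TPM in the 8 LacZ libraries, a log2 fold change between -1.51 and -1.31 over the 4 days. SMARCB1 was at 0.19 TPM or less in every library and the mesenchymal marker VIM lay between 1366 and 1922 TPM. Of the markers of other cell types, PTPRC, CD3E and HBB were listed at 0 in every library, and VWF, CDH5, EPCAM and CDH1 did not exceed 0.91 TPM.

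The levels of the 8 genes, compared per unit of transcript length as TPM, spanned a wide range. In the LacZ libraries BIRC5 had a median of 81.4 TPM and DIABLO 70.4 TPM, and BIRC5 was the higher of the pair in 5 of 8 LacZ and 4 of 8 BRD9 KO libraries, so their order was not resolved. Below them came BIRC2 at a median of 43.9 TPM, BIRC6 at 34.2 TPM, XIAP at 24.7 TPM, APAF1 at 17.5 TPM and CASP9 at 6.94 TPM. Each of these exceeded the next in all 8 LacZ libraries and all 8 BRD9 KO libraries, except that BIRC2 exceeded BIRC6 in 7 of the 8 BRD9 KO libraries. BIRC3 was the lowest, with a LacZ median of 0.065 TPM and no library above 0.95 TPM.

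**Figure D1:**
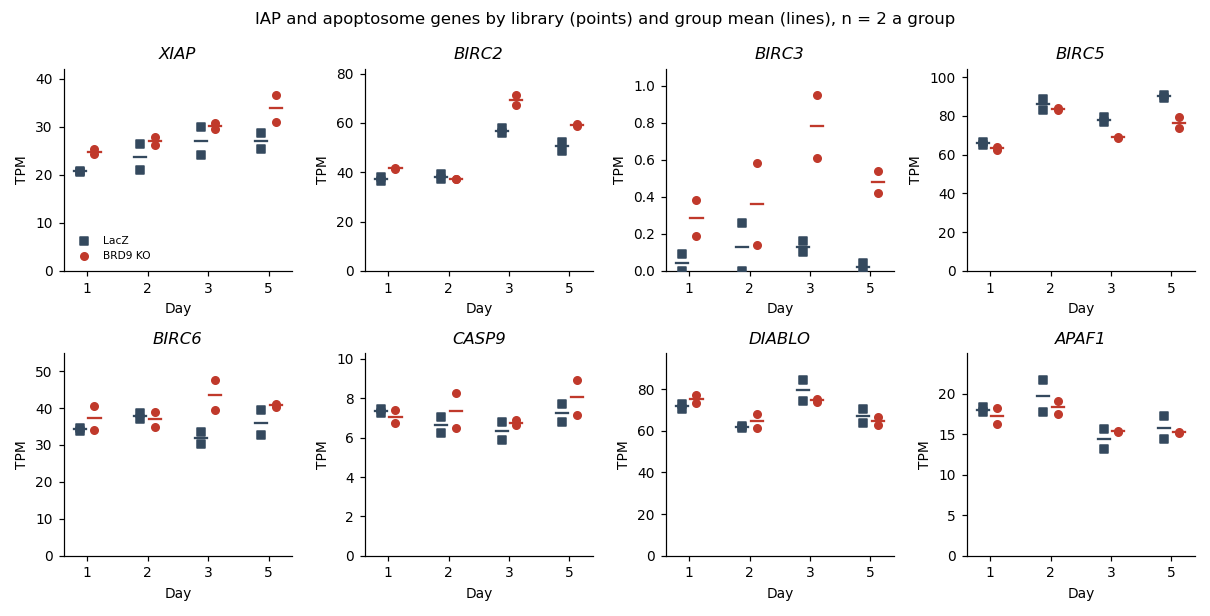
TPM (vertical axis, from 0) of the 8 genes by day (horizontal axis). Squares are LacZ and circles are BRD9 KO libraries, and lines mark the mean of the 2 libraries of a group. BIRC2 lies higher in BRD9 KO on days 3 and 5, BIRC5 lies lower on days 3 and 5, and BIRC3 stays under 1 TPM throughout.

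Loss of BRD9 was accompanied by higher XIAP and BIRC2 and lower BIRC5 on days 3 and 5, and more BIRC3 reads were seen on those days. Over both days XIAP was 1.37-fold and BIRC2 1.20-fold the LacZ level, BIRC5 was 0.883 of it, and BIRC3 went from 10 reads in 4 LacZ libraries to 103 reads in 4 BRD9 KO libraries. Transcripts of CASP9, APAF1, DIABLO and BIRC6 did not pass the test at an adjusted p of 0.05 on any day or in either pair of days. That is 4 of 8 genes called on days 3 and 5 together, 3 of them higher and 1 lower, where 21.5% of all tested genes were called, 10.6% higher and 10.9% lower. Without BIRC3 the count was 3 of 7, 2 of them higher and 1 lower. The median log2 fold change was 0.081 over the 8 genes and 0.079 over the 7 without BIRC3, beside -0.00030 over all tested genes.

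The calls accumulated with time. On day 1 edgeR called 0 of the 8 genes against a background of 0.539%, with 2 genes at an unadjusted p under 0.05, and DESeq2 called 1 and limma on TPM called 0. On day 2 it called 1 of 8, XIAP, against 2.7% of all genes. On day 3 it called XIAP, BIRC2 and BIRC5, which is 3 of 7 without BIRC3 and 4 of 8 with it, against 10.4%. On day 5 the same 3 of 7, and 4 of 8 with BIRC3, were called against 15%. For days 1 and 2 together 1 of 8, again XIAP, was called against 3.31%. BIRC3 was called on neither day 1 nor day 2 nor in that pair.

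**Figure D2:**
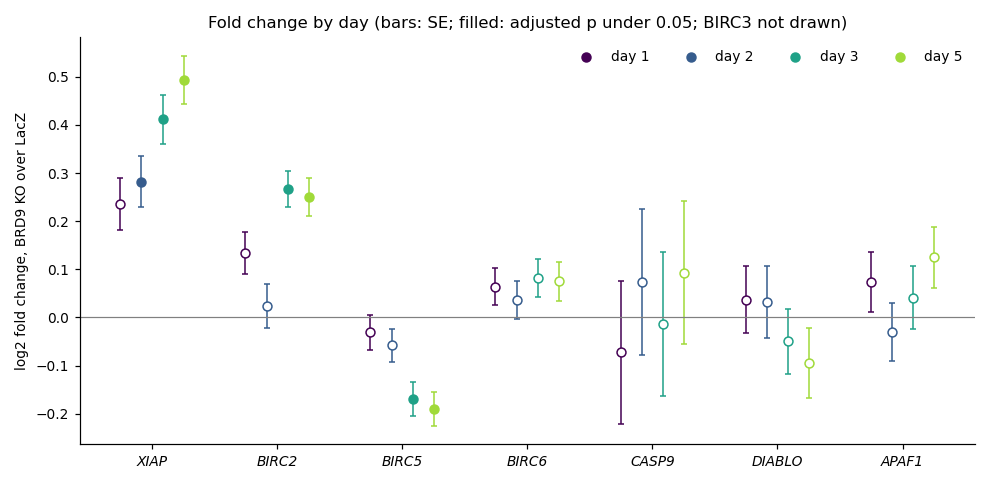
Log2 fold change of BRD9 KO over LacZ (vertical axis) on days 1, 2, 3 and 5 for 7 genes (horizontal axis). Bars are standard errors derived from the edgeR fold change and F statistic, filled points have an adjusted p under 0.05 and open points do not. XIAP lies between 0.24 and 0.49 on all 4 days, and BIRC5 reaches -0.19 on day 5. BIRC3 is drawn by its counts in a plot of its own.

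XIAP, the direct caspase inhibitor, lies at chrX:122993562-123047822 on the plus strand (GRCh37). In CPM (reads scaled to library size by the TMM method), BRD9 KO held 78.5 and 76.7 on day 1, 87.1 and 82.5 on day 2, 96.1 and 93.8 on day 3, and 105 and 108 on day 5. The LacZ libraries held 66.6 and 64.9, 72.5 and 67.1, 68.1 and 74.8, and 78.7 and 72.3 CPM on the same days. Both BRD9 KO libraries were above both LacZ libraries on each of the 4 days. With 2 libraries against 2, the groups did not overlap in CPM for 41% of all tested genes on day 1, 42.5% on day 2, 51.2% on day 3 and 54.6% on day 5, so the lack of overlap on a single day is common.

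The log2 fold change of XIAP was 0.24 ± 0.054 (SE) on day 1, with an adjusted p of 0.067, and 0.28 ± 0.053 on day 2, with an adjusted p of 0.00482. It was 0.41 ± 0.051 on day 3 and 0.49 ± 0.050 on day 5, with adjusted p of 2.47e-05 and 1.01e-06. The difference on day 2 no longer passed when replicate 1 of BRD9 KO (adjusted p = 0.112) or replicate 2 of LacZ (adjusted p = 0.105) from that day was omitted. Over days 3 and 5 the log2 fold change was 0.45 ± 0.036 (adjusted p = 2.49e-08), and the call held with each of the 8 libraries left out.

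The XIAP result was clear in read counts and not in TPM. TPM divides the reads of a gene by the mean length of its transcripts, weighted by their estimated abundance, and that length also differed between the groups. On days 3 and 5 the weighted XIAP length was 5365, 5364, 5759 and 5028 bases in the BRD9 KO libraries and 4741, 4185, 4627 and 4786 bases in the LacZ libraries, with no overlap, while on days 1 and 2 the groups overlapped. In TPM, XIAP on day 3 was 30.7 and 29.5 in BRD9 KO against 24.1 and 30.0 in LacZ, and on day 5 it was 31.0 and 36.6 against 28.7 and 25.3. The groups thus overlapped in TPM on day 3, as they did on day 2, and were apart on days 1 and 5. By limma on log2(TPM + 1), the XIAP difference over days 3 and 5 was 0.23 with an adjusted p of 0.122, and XIAP was called on no day between the groups. Whether transcripts of XIAP were used in different proportions was not tested, since the files hold gene-level estimates.

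**Figure D3:**
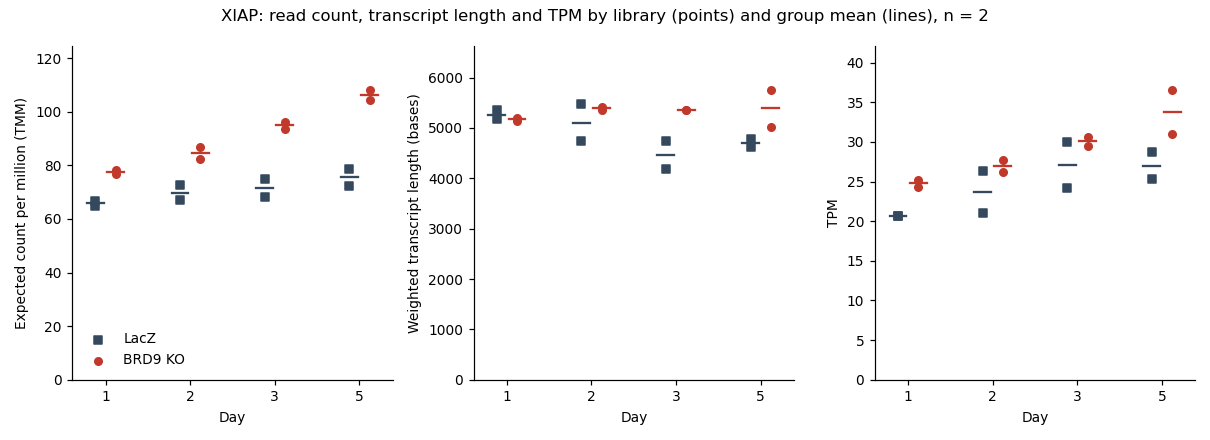
XIAP by day (horizontal axes) as TMM-scaled CPM, weighted transcript length in bases, and TPM (vertical axes, from 0). Squares are LacZ and circles BRD9 KO libraries, and lines mark the mean of the 2 libraries. CPM is higher in BRD9 KO on each day, length is higher in BRD9 KO on days 3 and 5, and TPM overlaps on days 2 and 3.

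BIRC2 and BIRC3, the ligases of the TNF receptor complex, are neighbours on chromosome 11. BIRC3 spans chr11:102188215-102210134 and BIRC2 spans chr11:102217942-102249401 (GRCh37, both on the plus strand), with 7807 bases between them. Their levels were far apart, and both were higher in BRD9 KO late in the course.

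On day 1 BIRC2 held 76.6 and 78.3 CPM with BRD9 lost against 69.3 and 72.0 in LacZ, and 69.6 and 67.8 against 68.5 and 66.8 on day 2. On day 3 it held 127 and 131 CPM against 106 and 108, and on day 5 107 and 113 CPM against 91.8 and 93.7. The groups overlapped on day 2 and were apart on the other days, and TPM gave the same separation. The log2 fold change was 0.13 ± 0.044 on day 1 and 0.023 ± 0.045 on day 2, neither of which passed (adjusted p = 0.238 and 0.903). It was 0.27 ± 0.038 on day 3 (adjusted p = 1.06e-04) and 0.25 ± 0.040 on day 5 (adjusted p = 1.94e-04). Over days 3 and 5 BIRC2 was called under all 17 alternatives, with an adjusted p of at most 0.00117.

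BIRC3 rested on few reads. The BRD9 KO libraries held 1 and 2 reads on day 1, 4 and 4 on day 2, 29 and 34 on day 3, and 14 and 26 on day 5. LacZ held 0 and 4, 0 and 1, 4 and 5, and 0 and 1 reads on the same days. The groups overlapped on day 1 and both BRD9 KO libraries held more reads than both LacZ libraries on each of the later days.

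Scaled to the library sizes, the ratio of summed BIRC3 reads was 6.15 on day 3 (63 against 9 reads, exact 95% interval 3.04 to 14.1). On day 5 it was 36.0 (40 against 1 read), with a wide interval of 6.09 to 1455, and over both days it was 9.15 (4.78 to 19.7). These intervals cover counting error only. The edgeR fit called BIRC3 on day 3, on day 5 and over both days. Since the gene was tested only because those BRD9 KO groups were high, these calls add no support to the counts. The difference on day 3 no longer passed when replicate 2 of BRD9 KO (adjusted p = 0.0778), replicate 1 of LacZ (0.0855) or replicate 2 of LacZ (0.0638) from that day was omitted.

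**Figure D4:**
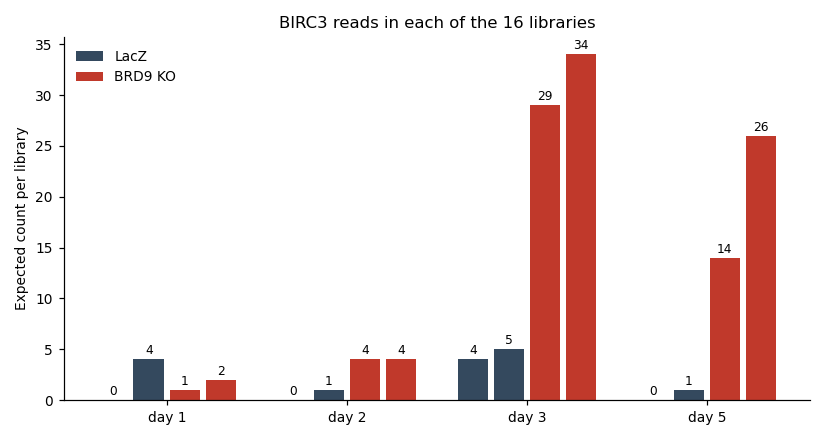
Expected counts of BIRC3 (vertical axis, from 0) in each of the 16 libraries, grouped by day (horizontal axis), with 2 LacZ and then 2 BRD9 KO bars a day. The 4 BRD9 KO libraries of days 3 and 5 hold 14 to 34 reads and the 4 LacZ libraries hold 0 to 5.

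BIRC3 is a textbook target of NF-kB, and its promoter is shown because several NF-kB genes moved on the same days. RefSeq promoter sequences (GRCh38.p14) were matched for 7 of the 8 genes. The 250 bases before the BIRC3 start, chr11:102317234-102317483 on the plus strand, are given with the matches to the 10-base NF-kB consensus motif, searched on both strands, in capitals.
BIRC3: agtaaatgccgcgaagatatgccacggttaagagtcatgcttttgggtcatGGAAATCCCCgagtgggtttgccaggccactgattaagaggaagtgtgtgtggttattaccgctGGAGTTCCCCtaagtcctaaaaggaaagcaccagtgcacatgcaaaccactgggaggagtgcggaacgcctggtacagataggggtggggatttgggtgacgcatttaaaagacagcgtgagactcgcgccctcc
The 2 matches begin 199 and 135 bases before the start, and both read as the consensus on the minus strand. Of all 35116 promoter windows of 250 bases, 9.96% held at least 1 match on either strand and 1.72% held at least 2. The window of BIRC6 held 1 match at 1 of its 2 listed starts, and no match was found for BIRC2, XIAP, CASP9, DIABLO or APAF1 in windows of this length. A match is a description of the letters and not evidence of binding.

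BIRC5, the mitotic member, lies at chr17:76210267-76221717 on the plus strand (GRCh37). In BRD9 KO it held 85.3 and 87.5 CPM on day 1, 113 and 112 on day 2, 92.5 and 93.6 on day 3, and 101 and 102 on day 5. In LacZ it held 87.2 and 89.5, 118 and 116, 106 and 104, and 115 and 116 CPM. The groups overlapped on day 1, and both BRD9 KO libraries were below both LacZ libraries on days 2, 3 and 5.

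The log2 fold change of BIRC5 was -0.031 ± 0.037 on day 1 and -0.058 ± 0.034 on day 2, neither of which passed. It was -0.17 ± 0.035 on day 3 (adjusted p = 0.00353) and -0.19 ± 0.035 on day 5 (adjusted p = 0.000699). Omitting replicate 1 of either group on day 3 took that difference past the threshold (adjusted p = 0.0531 for BRD9 KO and 0.0578 for LacZ). Over days 3 and 5 the log2 fold change was -0.18 ± 0.025 (adjusted p = 2.53e-05), called under all 17 alternatives.

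BIRC6, the ubiquitin-conjugating member (chr2:32582091-32844638, plus strand), was at the edge of the test. Its BRD9 KO libraries on day 3 held 178 and 182 CPM against 169 and 170 in LacZ, and on day 5 181 and 173 against 173 and 162. The groups were apart on day 3 and overlapped on day 5. The log2 fold change over days 3 and 5 was 0.079 ± 0.028 with an adjusted p of 0.0524, and 8 of 17 alternatives called it. The weighted length of BIRC6 transcripts was 7676 and 6433 bases in BRD9 KO on day 3 against 9290 and 8400 bases in LacZ, the opposite direction to XIAP.

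CASP9, the initiator caspase of the apoptosome (chr1:15817327-15853029, minus strand), held between 7.27 and 9.99 CPM in BRD9 KO and between 7.24 and 8.85 CPM in LacZ, so the ranges overlapped. Its log2 fold change over days 3 and 5 was 0.040, with a 95% interval of -0.18 to 0.26, the widest of the 4 genes that were not called. APAF1 (chr12:99039068-99129211, plus strand) held 40.1, 46.5, 46.1 and 48.4 CPM in BRD9 KO on days 3 and 5 against 39.5, 43.8, 43.2 and 43.9 in LacZ, with overlap. Its log2 fold change was 0.083, with an interval of -0.014 to 0.18 and an adjusted p of 0.228, and it was called only without BRD9 KO day 3 replicate 1 (adjusted p = 0.0339).

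DIABLO, the mitochondrial antagonist (chr12:122692210-122712003, minus strand), held 48.2, 45.2, 42.2 and 39.3 CPM in BRD9 KO on days 3 and 5 against 45.2, 51.8, 45.3 and 40.9 in LacZ, with overlap. Its log2 fold change was -0.072, with an interval of -0.18 to 0.032. DIABLO shares 1139 exonic bases with the gene ENSG00000256861 and 970 with B3GNT4 on the other strand in the GENCODE annotation lifted to GRCh37, and its expected counts were not whole numbers, so reads could be split among these genes. For the other members the overlapping genes in the files had at most 2 reads in any library.

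The sum of BIRC2 and XIAP TPM over DIABLO TPM was read per library. It joins inhibitor genes that were both called higher over days 3 and 5, and leaves out BIRC5, which was called lower. On days 3 and 5 the ratio was 1.30, 1.36, 1.35 and 1.53 in BRD9 KO and 1.07, 1.04, 1.10 and 1.22 in LacZ, with no overlap. On day 1 it was 0.869 and 0.899 in BRD9 KO against 0.806 and 0.804 in LacZ, also apart. On day 2 the groups overlapped, at 0.954 and 1.03 in BRD9 KO against 1.07 and 0.933 in LacZ. Of all tested genes taken singly, 37.2% were apart in TPM on day 1, 45.5% on day 3 and 48.2% on day 5. Those shares are for single days and genes not chosen by their calls, so they are no measure for this ratio. Since its genes were chosen as called higher in these libraries, the separation on days 3 and 5 adds no support to their calls. This ratio restates the members' own levels and was not tested.

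Whether the effect of BRD9 loss changed between the periods was tested as the difference of days 3 and 5 from days 1 and 2. The test called 3 of 8 genes, and 3 of 7 without BIRC3, against a background of 7.43%, XIAP and BIRC2 in the higher and BIRC5 in the lower direction. The change was 0.18 ± 0.042 for BIRC2 (adjusted p = 0.0117), and it held with each of the 16 libraries left out. For XIAP it was 0.19 ± 0.052 (adjusted p = 0.03) and for BIRC5 -0.14 ± 0.035 (adjusted p = 0.0236), and each of these was lost when some single libraries were left out. By limma on TPM the XIAP change was 0.013 (adjusted p = 0.982), and by DESeq2 it missed the threshold (adjusted p = 0.0603). BIRC3 changed by 2.48 ± 1.39, with an interval of -0.45 to 5.40, and did not pass (adjusted p = 0.371). An F-test for any difference among the 4 days called 1 of 8, or 1 of 7 without BIRC3, against 5.53% of all genes. This was BIRC2 (adjusted p = 0.0456), and the call was lost in 15 of 16 fits with a library left out, with DESeq2 (adjusted p = 0.259), with limma on TPM (0.181) and with a replicate block within days (0.0511).

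The control cells also moved with time. From day 1 to day 5 in LacZ, 4 of 8 genes, and 4 of 7 without BIRC3, were called against a background of 25.6%. BIRC5 rose by 0.39 ± 0.035 (adjusted p = 1.85e-07) and BIRC2 by 0.39 ± 0.042 (adjusted p = 1.87e-06), XIAP rose by 0.20 ± 0.054 (adjusted p = 0.00892), and BIRC6 fell by 0.12 ± 0.039 (adjusted p = 0.0362). In BRD9 KO 6 of 8 were called against 35.1%, or 5 of 7 without BIRC3. BIRC2 rose by 0.51 ± 0.041, XIAP by 0.46 ± 0.051 and BIRC5 by 0.23 ± 0.036, with adjusted p of 1.86e-08, 8.88e-07 and 6.96e-05. BIRC5 was therefore higher on day 5 than on day 1 in both groups, by less in BRD9 KO. The course was not steady, and its mean was highest on day 2 in both groups. On days 1, 2, 3 and 5 mean BIRC5 was 86.4, 112, 93.0 and 101 CPM in BRD9 KO. In LacZ it was 88.4, 117, 105 and 116 CPM. BIRC6 and DIABLO fell by 0.11 ± 0.039 and 0.20 ± 0.072 in BRD9 KO (adjusted p = 0.0445 and 0.0336). On the TPM scale BIRC6 had the opposite sign over time in both groups, 0.066 in LacZ and 0.13 in BRD9 KO, with adjusted p of 0.773 and 0.46. The LacZ call of XIAP was lost without LacZ day 1 replicate 2 (adjusted p = 0.083) or LacZ day 5 replicate 1 (0.18), and that of BIRC6 without LacZ day 1 replicate 1 (0.219) or LacZ day 5 replicate 2 (0.304). In BRD9 KO the BIRC6 call was lost without day 1 replicate 1 (adjusted p = 0.268) or day 5 replicate 2 (0.306), and the DIABLO call without the same libraries (0.179 and 0.274).

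Genes with patterns most like each member were named by the Pearson correlation of log2 CPM over the 16 libraries, which share guide, day and depth. For BIRC2 they were ZMIZ2 (r = 0.987), MFHAS1 (r = 0.984) and TRAF3 (r = 0.977), TRAF3 being an adaptor of the complex in which BIRC2 acts on MAP3K14. For BIRC5 they were CDCA8 (r = 0.978), a partner in the chromosomal passenger complex, MCM3 (r = 0.972) and EXOSC8 (r = 0.968). By Spearman correlation these 3 ranked 7.5, 23.5 and 11.5, so the nearest genes to BIRC5 depended on the measure. For XIAP they were GLTSCR1L (r = 0.943), a subunit of the BRD9-containing SWI/SNF complex, ISM2 (r = 0.929) and ERGIC1 (r = 0.921). For APAF1 they were CDKN1A (r = 0.925) and HEATR5A, for DIABLO CUX1 (r = 0.897), ELP2 and TRMT11, and for BIRC6 GDF11 (r = 0.891), EML2 and PRNP. CASP9 had weaker neighbours, RP11-504P24.8 (r = 0.806, rank 7 by Spearman correlation), CTD-2287O16.5 and RPS6KA3. For BIRC3 the neighbours were RRAS2 (r = 0.957), APOO and DDX58, and BIRC3 had more than 5 reads in only 4 of the 16 libraries. Between members, BIRC3 correlated with XIAP (r = 0.781) and with BIRC2 (r = 0.766), and APAF1 with BIRC2 in the negative direction (r = -0.726).

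Genes around the members in the same pathways were read from lists by function, on days 3 and 5 together. Here and in the lists that follow, rose and fell mean higher or lower in BRD9 KO than in LacZ, and not a change with time. Of 14 tested genes of TNF and death receptor signalling, in which BIRC2 and BIRC3 act, 7 were higher and 0 lower, beside 10.6% higher and 10.9% lower among all tested genes, and the median log2 fold change was 0.14. MAP3K14 encodes the kinase whose protein BIRC2 and BIRC3 keep low, and its RNA rose by 0.25 ± 0.029 (adjusted p = 5.47e-06). The level of the kinase protein is not known from these data. The death receptor gene TNFRSF10B rose by 0.17 ± 0.020 (adjusted p = 5.98e-06), TRAF3 by 0.19 ± 0.026 (adjusted p = 1.89e-05) and the receptor-bound kinase gene RIPK1 by 0.20 ± 0.040 (adjusted p = 0.000952). These 4 genes, with MAP3K14 among them, kept the call under all 17 alternatives. The other called genes were TRAF1, lost in 1 of 17, CFLAR, lost in 8, and CYLD, lost in 11, and DESeq2 called 4 genes of the list. FAS and TNFRSF10A were too low to test.

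Of 9 tested NF-kB target genes other than the members, 6 were higher and 1 lower, with a median of 0.27. Among all tested genes 10.6% were higher and 10.9% lower. The count of higher genes was 5 with DESeq2 and with limma on TPM. One of the 6, REL, was near the threshold (adjusted p = 0.0491) and was called in 9 of 17 alternatives. The subunit genes NFKB2 and RELB rose by 0.35 ± 0.027 (adjusted p = 2.15e-08) and 0.46 ± 0.044 (adjusted p = 3.52e-07), NFKB1 by 0.27 ± 0.034 (adjusted p = 9.35e-06) and the adhesion gene ICAM1 by 0.30 ± 0.031 (adjusted p = 8.5e-07). TNFAIP2 fell by 0.42 ± 0.097 (adjusted p = 0.0036), a call lost with limma on TPM (adjusted p = 0.103). NFKBIA, the inhibitor gene and the most abundant of the list by mean LacZ TPM, was at 0.023 ± 0.030 (adjusted p = 0.645).

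From day 1 to day 5, 18 of 21 mitosis genes were called higher in LacZ and 0 lower, where 25.6% of all tested genes were called. In BRD9 KO 8 were called higher and 1 lower over that time, where 35.1% of all tested genes were called. Between the groups on days 3 and 5 together, 18 of the 21 were lower in BRD9 KO than in LacZ and 0 higher, with a median of -0.20. TOP2A was lower by 0.22 ± 0.015, PRC1 by 0.25 ± 0.028, TPX2 by 0.23 ± 0.026 and CCNA2 by 0.25 ± 0.030, with adjusted p of 5.07e-09, 2.74e-06, 2.95e-06 and 4.86e-06. CCNB1, the most abundant by mean LacZ TPM, fell by 0.14 ± 0.022 (adjusted p = 1.3e-04). Among the partners of BIRC5 in the chromosomal passenger complex, CDCA8 fell by 0.20 ± 0.027 (adjusted p = 2.94e-05) and INCENP by 0.16 ± 0.038 (adjusted p = 0.00472), and the kinase gene AURKB was at -0.078 ± 0.040 (adjusted p = 0.191). The part of mitotic activity in the BIRC5 difference was not tested.

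Among the other caspase genes, the initiator gene CASP10 fell by 0.48 ± 0.16 (adjusted p = 0.0355), a call lost in 10 of 17 alternatives. The 5 inflammatory and other caspase genes CASP1, CASP4, CASP5, CASP12 and CASP14 were listed at 0 in every library.

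Of 9 tested apoptosome and mitochondrial factor genes, 0 were higher and 3 lower, with a median of -0.044. AVEN, an apoptosis inhibitor that binds APAF1, fell by 0.29 ± 0.043 (adjusted p = 4.96e-05), PTMA by 0.11 ± 0.014 (adjusted p = 1.24e-05) and CSE1L by 0.095 ± 0.020 (adjusted p = 0.0018). CYCS, which encodes the cytochrome c that nucleates the apoptosome, was at -0.044 ± 0.018 (adjusted p = 0.0983) and another IAP antagonist gene, HTRA2, at 0.010 ± 0.069 (adjusted p = 0.947). XAF1 and SEPT4, both linked to XIAP antagonism, were too low to test.

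Of the other IAP genes, BIRC7 (livin) fell by 0.18 ± 0.052 (adjusted p = 0.017), lost in 6 of 17 alternatives, and NAIP was at 0.18 ± 0.13 (adjusted p = 0.36). BIRC8 was too low to test. Of the genes listed beside BIRC6, its ubiquitin-activating enzyme gene UBA6 was higher by 0.12 ± 0.029 (adjusted p = 0.00443) and USP8 was at 0.013 ± 0.031 (adjusted p = 0.84). The kinesin gene KIF20A, also listed there but not established as a partner of BIRC6, was lower by 0.27 ± 0.032 (adjusted p = 3.97e-06). On the TPM scale UBA6 had the opposite sign. Of 12 tested p53 target genes, the group to which the APAF1 neighbour CDKN1A belongs, 4 were higher and 0 lower. CDKN1A was higher by 0.14 ± 0.021 (adjusted p = 7.66e-05), BAX by 0.16 ± 0.039 (adjusted p = 0.00617), GDF15 by 0.095 ± 0.032 (adjusted p = 0.0433) and RRM2B by 0.10 ± 0.035 (adjusted p = 0.0443). The count was 2 without replicate 1 of either group on day 3, replicate 2 of BRD9 KO on day 5 or replicate 1 of LacZ on day 5.

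**Figure D5:**
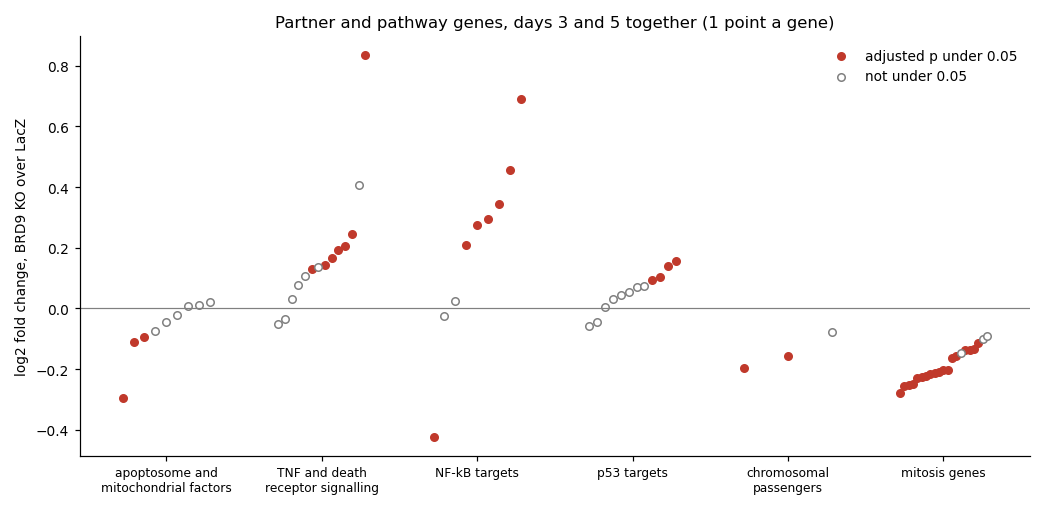
Log2 fold change of BRD9 KO over LacZ on days 3 and 5 together (vertical axis) for 6 lists of partner and pathway genes (horizontal axis), 1 point a gene. Filled points have an adjusted p under 0.05. The called mitosis genes all lie below 0 and the called TNF and death receptor genes all lie above 0.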

How the data were processed

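RNA from 16 libraries of G401 cells had been aligned by the authors to hg19 with STAR and quantified with RSEM, whose versions and annotation are not given in the sources used here. The deposited values were the gene-level expected count, the TPM and the abundance-weighted transcript length. Expected counts were rounded (35.7% of those above 0 were not whole), and low genes were removed by edgeR's filterByExpr (minimum count 10, reached in as many libraries as the smallest group holds, and 15 reads in total). One edgeR 4.0.16 quasi-likelihood model with TMM scaling was fitted to all 16 libraries, with 8 residual degrees of freedom and Benjamini-Hochberg adjustment over 15027 genes. Fold changes are BRD9 KO over LacZ. Standard errors were derived as the size of the log2 fold change over the square root of the F statistic, and the intervals follow from them. For some genes they are narrower than the edgeR p-value implies. On day 2 the 95% interval of CDCA8 was -0.165 to -0.0066, beside an unadjusted edgeR p of 0.0555. Calls rest on the p-values. DESeq2 1.42.0, limma 3.58.1 on log2(TPM + 1), other filters and scalings, a replicate block and the omission of each library were tried. Replicates differed by slightly more than sampling noise, with a median spread of 1.06 to 1.15 times that noise, so no library was counted as a duplicate. The common coefficient of variation beyond counting noise was 0.023 in edgeR. So small a spread does not show that the replicates were separate cultures. Levels between genes use TPM. The members, the lists and the naming rule (per list and direction up to 4 called genes of smallest p, the most abundant gene, any gene behind a count of 5 or fewer, and 3 nearest genes a member) were chosen with earlier results of these data known. Some genes that these rules name are not reported here.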

Additional observations from a re-analysis of the deposited data

Results flagged for a closer look

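The effect of BRD9 loss differed between days 3 and 5 and days 1 and 2 for 3 members, by a test of that difference in the edgeR fit. For XIAP the log2 fold change was 0.19 higher in the later pair of days (0.26 early, 0.45 late). With limma on log2(TPM + 1) the change was 0.013 (adjusted p = 0.982), and with DESeq2 it missed the threshold (adjusted p = 0.0603). It no longer passed when 1 of 8 libraries was omitted. On day 1 these were replicate 2 of BRD9 KO (adjusted p = 0.0889) and replicate 1 of LacZ (0.076), on day 2 replicate 2 of BRD9 KO (0.0726) and replicate 1 of LacZ (0.0997), on day 3 replicate 1 of BRD9 KO (0.0735) and of LacZ (0.0916), and on day 5 replicate 2 of BRD9 KO (0.074) and of LacZ (0.0879).

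For BIRC2 it was 0.18 higher (0.078 early, 0.26 late), and the call held with each library left out and was lost with limma on log2(TPM + 1) (0.19, adjusted p = 0.104).

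For BIRC5 it was -0.14 (-0.044 early, -0.18 late). The call was lost with DESeq2 (adjusted p = 0.144), with limma on log2(TPM + 1) (0.12) and without a filter on low counts (0.161). It no longer passed when 1 of 10 libraries was omitted. On day 1 these were replicate 2 of BRD9 KO (adjusted p = 0.0835) and replicate 1 of LacZ (0.071), on day 2 replicate 1 of BRD9 KO (0.0616) and replicate 2 of LacZ (0.0585), on day 3 replicate 1 of BRD9 KO (0.0682) and of LacZ (0.0678), and on day 5 either library of BRD9 KO (0.0512 each) or LacZ (0.052 and 0.0587).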

How the results depend on the processing

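The number of members called moved with the setting, and so did the total over all genes. On day 3 limma called 412 genes in all against 1569 in the main fit, and on day 1 edgeR without a filter called 290 against 81. With limma on log2(TPM + 1) the number of members called was 0 on day 2, 1 on day 3 and 2 on day 5. It was 0 for days 1 and 2, for the change between periods and in the F-test. Over time it was 2 for LacZ and 3 for BRD9 KO. With DESeq2 it was 1 on day 1 (XIAP, adjusted p = 0.0371), 1 for the change between periods, 0 in the F-test and 3 for BRD9 KO over time. Without a filter on low counts it was 1 on day 1 (XIAP, adjusted p = 0.00801) and 2 in the F-test. With a library left out it was 0 to 1 on day 2, 2 to 3 on day 3 (2 without LacZ day 3 replicate 1), 1 to 3 for the change between periods and 0 to 1 in the F-test, whose BIRC2 call was lost without any library except BRD9 KO day 5 replicate 1 (adjusted p = 0.0544 to 0.153). With 7 members, BIRC3 left out, no count moved by over 1.5 times. Over days 3 and 5 the count was 3 to 5 under the alternatives. On day 2, 3 of 8 members did not overlap between groups by TMM CPM, where 42.5% of all tested genes did not, and 0 by TPM, where 39.4% did not. The replicate numbers did not pair the libraries (correlations of same-numbered deviations -0.0123, -0.0489, -0.0245 and -0.0176 on days 1, 2, 3 and 5). With a block for replicate number within days the F-test called 0 members (BIRC2 adjusted p = 0.0511), BIRC6 over days 3 and 5 was called (adjusted p = 0.0151), and its calls over time and that of DIABLO were lost.

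Signs reversed only in members or contrasts that were not called, except BIRC6 over time with limma on TPM (0.066 in LacZ, 0.13 in BRD9 KO). The other reversals with limma were BIRC3 (0.30) and APAF1 (-0.062) on day 1, BIRC2 (-0.036) and BIRC6 (-0.031) on day 2, CASP9 (0.080) on day 3, APAF1 (-0.044) on day 5 and APAF1 (-0.079) on days 1 and 2. CASP9 on days 1 and 2 was at -0.0017 with library totals alone, -0.0085 without a filter, -0.00089 with only the libraries of the contrast and -0.0053 with the block within days, and for LacZ over time at 0.0018 with that block. With a library left out, the ranges on day 1 were -1.01 to 3.80 for BIRC3 and -0.0081 to 0.10 for DIABLO. On day 2 they were -0.0010 to 0.041 for BIRC2, -0.0096 to 0.073 for BIRC6, -0.11 to 0.21 for CASP9, -0.038 to 0.097 for DIABLO and -0.066 to 0.0069 for APAF1. On day 3 they were -0.084 to 0.065 for CASP9, -0.14 to 0.051 for DIABLO and -0.057 to 0.16 for APAF1, and on day 5 -0.077 to 0.28 for CASP9. On days 1 and 2 they were -0.093 to 0.069 for CASP9 and -0.0012 to 0.067 for DIABLO, and for CASP9 on days 3 and 5 -0.046 to 0.13 and for the change between periods -0.045 to 0.14. Over time they were -3.97 to 2.37 for BIRC3 and -0.17 to 0.036 for CASP9 in LacZ, and -0.076 to 0.28 for CASP9 in BRD9 KO. The causes were not tested.

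Over all genes, limma on TPM called 1534 in place of 3230 over days 3 and 5, and on day 1 the count ran from 11 (limma) to 290 (no filter) around 81. For the other tests the total called by limma is given with that of the main edgeR fit in brackets. It was 103 (406) on day 2, 412 (1569) on day 3, 994 (2250) on day 5 and 132 (498) for days 1 and 2. It was 317 (1117) for the change between periods and 208 (831) in the F-test, where edgeR without a filter called 1459. Over time it was 1811 (3847) in LacZ and 3396 (5270) in BRD9 KO. The genes shared between the fits were not counted. DESeq2 called 4 in place of 7 TNF and death receptor genes and 2 in place of 4 p53 target genes. BIRC3 had 0 to 5 reads in 12 of 16 libraries.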

Other observations

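Of 12 tested p53 target genes, 4 were higher on days 1 and 2 and 0 lower, where 1.48% of all tested genes were higher, MDM2 by 0.18 ± 0.026 (adjusted p = 0.000406), FDXR by 0.17 ± 0.033 (adjusted p = 0.00538), XPC by 0.13 ± 0.030 (adjusted p = 0.0176) and BAX by 0.16 ± 0.039 (adjusted p = 0.0246). Of these, BAX was also called on days 3 and 5. These early calls were not refitted with libraries left out.

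Some calls of pathway genes over days 3 and 5 rested on single libraries. That of BIRC7 was lost on omitting replicate 2 of BRD9 KO (adjusted p = 0.0613) or of LacZ (0.153) from day 3, or replicate 2 of BRD9 KO (0.084) or replicate 1 of LacZ (0.0736) from day 5. For CASP10 this held for replicate 2 of BRD9 KO (0.0994) and both LacZ replicates (0.0692 and 0.0779) of day 3, and for replicate 2 of BRD9 KO (0.146) and of LacZ (0.103) of day 5. BAX was lost on omitting replicate 1 of BRD9 KO from day 3 (0.0506). RRM2B was lost on omitting replicate 2 of BRD9 KO (0.139) or replicate 1 of LacZ (0.153) from day 3, or replicate 2 of BRD9 KO (0.268) or replicate 1 of LacZ (0.203) from day 5. GDF15 was lost on omitting any of 6 libraries, with adjusted p between 0.0779 and 0.227.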
